A study of Mus musculus with 12 samples.

Results

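Skipped exons of 60 bases or fewer made up 380 of the 1769 skipped exon (SE) events listed for the gastrocnemius and 379 of the 1763 listed for the quadriceps, which is 21.5% in each muscle. Events were chosen by the exon's length alone, and the giant genes Ttn and Neb were left out by the rule, although neither had an event this short. Their events remain among the longer events and in the shares over all events. The 380 and 379 events came from 357 distinct exons in 305 genes in each muscle, since 1 exon can be listed with several pairs of neighbouring exons. RNA was sequenced from the left gastrocnemius and quadriceps of 6 female mice that had received PBS injections, 3 flown on the International Space Station for 9 weeks and 3 ground controls kept in identical hardware, all 30 weeks old at the start. This gave 12 libraries in 4 groups of 3, namely ground gastrocnemius, flight gastrocnemius, ground quadriceps and flight quadriceps. The sample labels give the strain as C57BL/6, whereas the study's methods give BALB/c. The carcasses had been frozen and were thawed before dissection. For each exon, percent spliced in (PSI), the share of transcripts that hold the exon, was computed in each sample from the junction reads and effective lengths that the authors deposited.

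Exons of this size are shorter than most internal exons, and those of 27 bases or fewer are often called microexons. A microexon adds only a few amino acids to a protein, and its splicing depends on RNA-binding proteins that act from the surrounding introns, among them the RBFOX, MBNL and PTBP families and, in neurons, SRRM4. An exon whose length is a multiple of 3 can be included or skipped without a shift of the reading frame, and in striated muscle many such exons sit in sarcomeric and calcium-handling proteins.

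The exons that the results turn on are shown with 10 bases of the spliced transcript on each side in lower case and the skipped exon in capitals, read 5′ to 3′ from the GENCODE vM21 transcripts. Positions are 1-based on GRCm38 (mm10), and all of these exons are coding. The first 7 belong to Tnnt3, fast skeletal troponin T, the tropomyosin-binding subunit of the troponin complex. They are given in transcript order so that the glutamate-rich exons near the start of the protein (GAA and GAG codons) and the pair of equal length further on can be compared.
Tnnt3, 18 bases, chr7:142502740-142502757, plus strand: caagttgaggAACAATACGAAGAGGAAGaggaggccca
Tnnt3, 15 bases, chr7:142504250-142504264, plus strand: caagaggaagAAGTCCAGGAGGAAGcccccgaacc
Tnnt3, 12 bases, chr7:142505288-142505299, plus strand: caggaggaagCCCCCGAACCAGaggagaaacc
Tnnt3, 15 bases, chr7:142505516-142505530, plus strand: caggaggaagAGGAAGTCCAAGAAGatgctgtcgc
Tnnt3, 39 bases, chr7:142507750-142507788, plus strand: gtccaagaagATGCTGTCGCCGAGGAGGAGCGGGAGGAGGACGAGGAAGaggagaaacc
Tnnt3, 41 bases, chr7:142513665-142513705, plus strand: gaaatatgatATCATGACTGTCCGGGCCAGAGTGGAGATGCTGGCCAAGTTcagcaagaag
Tnnt3, 41 bases, chr7:142514326-142514366, plus strand: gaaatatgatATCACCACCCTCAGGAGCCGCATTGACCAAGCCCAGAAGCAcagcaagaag
The next 3 belong to Ryr1, the calcium release channel of the sarcoplasmic reticulum, and Tnnt1, slow skeletal troponin T. The Ryr1 pair are the most deeply read microexons outside Tnnt3, and the Ryr1 exon of 18 bases and the Tnnt1 exon passed the test between the muscles of ground mice.
Ryr1, 18 bases, chr7:29044919-29044936, minus strand: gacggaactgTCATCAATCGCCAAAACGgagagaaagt
Ryr1, 15 bases, chr7:29056234-29056248, minus strand: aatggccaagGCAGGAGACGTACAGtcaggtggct
Tnnt1, 33 bases, chr7:4513581-4513613, minus strand: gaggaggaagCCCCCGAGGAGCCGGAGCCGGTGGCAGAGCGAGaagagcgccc
The last 4 are exons of other roles whose flight and ground values are given below. They come from the splicing regulator Rbfox1, the translation initiation cofactor Eif4h, the vesicle scaffold Erc1 and the lysosomal precursor Psap.
Rbfox1, 40 bases, chr16:7363865-7363904, plus strand: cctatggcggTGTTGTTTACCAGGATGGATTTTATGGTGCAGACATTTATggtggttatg
Eif4h, 60 bases, chr5:134624441-134624500, minus strand: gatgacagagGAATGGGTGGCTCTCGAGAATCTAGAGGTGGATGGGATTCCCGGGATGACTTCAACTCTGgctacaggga
Erc1, 12 bases, chr6:119734081-119734092, minus strand: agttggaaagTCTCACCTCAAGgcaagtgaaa
Psap, 9 bases, chr10:60297537-60297545, plus strand: gatgcacatgCAGGATCAGcaacccaagg

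Over both muscles, 358 distinct exons in 306 genes met the rule. In 268 genes there was 1 such exon, and in 38 there were more, led by Tnnt3 with 7, the microtubule-binding gene Clasp2 with 5 and the ADP-ribosyltransferase family gene Art3 with 4. Exons were counted by start and end, so that the 36-base and 37-base Art3 exons, which share their end, count separately. The shortest were 3 exons of 6 bases, followed by 6 of 9 bases, 8 of 12 and 10 of 15. Of the 357 exons in the gastrocnemius events, 282 (79%) had a length divisible by 3, against 60.8% of the 1162 longer exons. The share was 100% of the 27 exons of up to 15 bases, 92.5% of the 53 of 16 to 27 bases, 79.1% of the 139 of 28 to 45 bases and 69.6% of the 138 of 46 to 60 bases. By the annotation 291 of the 357 (81.5%) lay wholly in coding sequence, 15 were partly coding, 12 were in 5′ UTRs and 2 in 3′ UTRs. Another 21 occurred only in transcripts annotated as targets of nonsense-mediated decay (NMD) and 16 only in non-coding transcripts. Among the coding exons 88.3% were multiples of 3, against 70.1% of the longer coding exons. Median GC content was 47.2% in the short and 48.8% in the longer exons. These shares are descriptions of the listed exons and were not tested.

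**Figure D1:**
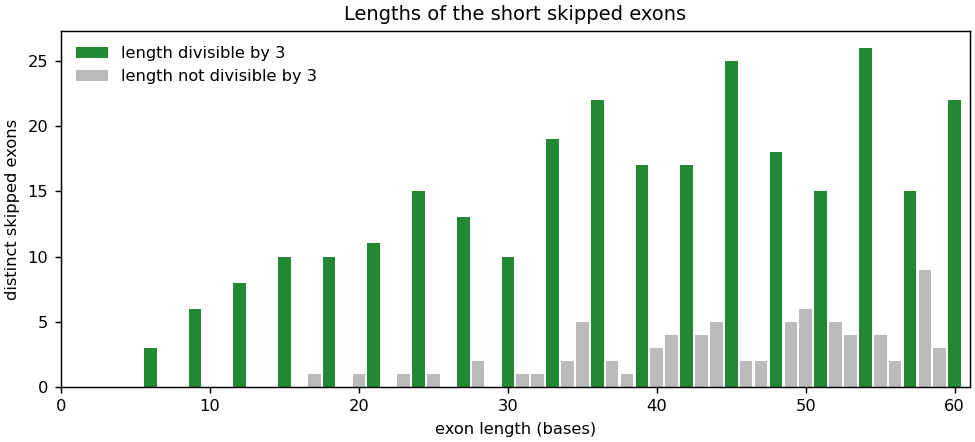
Number of distinct skipped exons over both muscles (vertical axis) at each exon length in bases (horizontal axis), in green where the length is divisible by 3 and grey where it is not. No exon of up to 15 bases has a length that is not divisible by 3, and green bars stand above their grey neighbours over the whole range to 60 bases.

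Codons for glutamate and aspartate (GAA, GAG, GAC and GAT) made up 516 of 3640 codons (14.2%) in the 265 short coding exons that could be read in frame, and 5357 of 40041 (13.4%) in 801 longer ones. In 6 short exons they made up at least 50%. Of these 4 were in Tnnt3, 1 of 24 bases was in the muscle transcription factor Mef2a and 1 of 39 bases was in the focal adhesion gene Tns1. The 5 Tnnt3 exons of 12 to 39 bases together held 24 acidic codons among 38 (63.2%). The pair of 41-base Tnnt3 exons, each of which begins with the same ATCA, had the same base at 18 of their 41 positions. Neither is divisible by 3, and the exchange of one for the other keeps the frame.

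Junction reads summed over all SE events ran from 269195 to 349409 per sample in the gastrocnemius and from 213052 to 345833 in the quadriceps, and the short events took 16.6% to 19.5% of them. The lowest total belonged to the ground quadriceps sample listed last, in which 16 short events had no read, against 0 in each other sample, and 75 had fewer than 10 reads, against 16 to 40. Sample names are missing from these lists of 3, so that samples are given by list order and were not matched to mice or between muscles. Muscle genes were abundant in all 12 libraries, with Acta1 at 15946 TPM (a transcript share scaled to the same total in each library) or more and the muscle creatine kinase Ckm at 11935 or more. The neuronal genes Snap25 and Nefl were at or under 0.40 TPM.

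After the read filter (more than 10 junction reads on average in each group of the muscle, and PSI not at or beyond 5% or 95% in all 6 samples), 335 of the 380 gastrocnemius events (315 exons) and 317 of the 379 quadriceps events (298 exons) were tested. The median short event had 28.8 reads per sample in gastrocnemius and 27.7 in quadriceps, against 30.6 and 34 for longer events. Only 44 and 47 short events had more than 100. Median PSI on the ground was 67.2% for the short events and 76.5% for the longer ones in the gastrocnemius, and 65.5% and 76.6% in the quadriceps. Within the short events, those divisible by 3 had a median ground PSI of 67.9% (gastrocnemius) and 69% (quadriceps), and those not divisible by 3 had 49.4% and 37.6%. The median SD of PSI among the 3 samples of a group was 6.45 percentage points in ground and 6.59 in flight gastrocnemius, and 8.66 and 7.11 in the quadriceps.

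Flight and ground were compared within each muscle by limma on log2 ratios (inclusion reads to skipping reads), with adjustment over all 1509 gastrocnemius and 1480 quadriceps SE events. At an adjusted p under 0.05 with a change of more than 5 percentage points, 0 of 335 short events passed in the gastrocnemius and 0 of 317 in the quadriceps, where the share over all events was 0% in both. A quasi-binomial model of the same reads called 1 and 4 short events, and limma was made the main test after the calls of both had been seen. An unadjusted p under 0.05 was found for 25 short events in the gastrocnemius (11 higher and 14 lower in flight), or 7.46% against 6.56% of all events (2.78% higher and 3.78% lower). In the quadriceps it was found for 21 (13 higher and 8 lower), or 6.62% against 6.42% (3.18% higher and 3.24% lower). The 3 flight and 3 ground PSI values did not overlap for 42 short events (18 higher, 24 lower) in the gastrocnemius, which was 12.5%, as over all events (12.5%, with 5.04% higher and 7.42% lower). They did not overlap for 40 (17 higher, 23 lower) in the quadriceps, or 12.6% against 11.6% of all events (5.61% higher and 5.95% lower). Median absolute change was 4.55 points for short and 4.22 for longer events in the gastrocnemius, and 5.63 and 5.43 in the quadriceps. By these counts short exons stood close to the background, and values are given below for exons of which none passed the adjusted threshold. An exact permutation test of PSI in groups of 3 cannot give a two-sided p below 0.1.

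**Figure D2:**
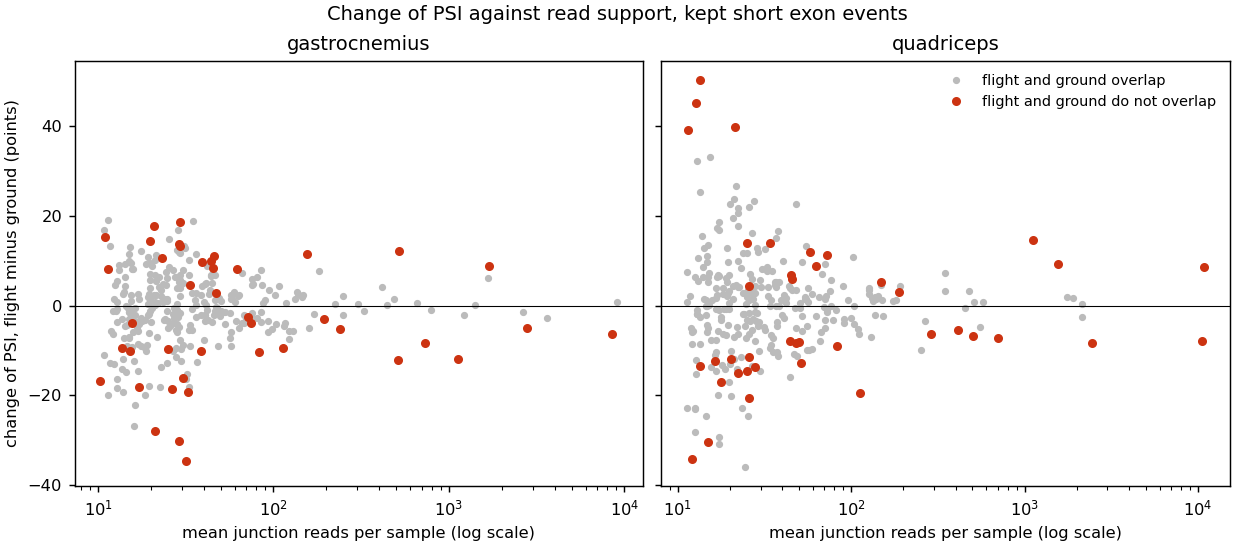
Change of PSI from ground to flight in percentage points (vertical axis) against mean junction reads per sample on a log scale (horizontal axis) for the tested short events, 335 in the gastrocnemius (left) and 317 in the quadriceps (right). Red points are the 42 and 40 events whose flight and ground samples do not overlap, and changes beyond 20 points in either direction are all at fewer than 200 reads.

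In the shortest class, up to 15 bases, 5 of 29 events in the gastrocnemius and 5 of 26 in the quadriceps had an unadjusted p under 0.05 (17.2% and 19.2%, where the share over all events was 6.56% and 6.42%). These were few genes. The 5 gastrocnemius events were 3 of Tnnt3, 1 of Ryr1 and 1 of Immt, a scaffold of mitochondrial cristae, and the 5 quadriceps events were 2 of Tnnt3 and 1 each of Ryr1, Erc1 and the receptor phosphatase gene Ptprm. Events of 1 gene share junction reads and are not independent. From 16 to 27 bases, 1 of 47 events in the gastrocnemius and 2 of 41 in the quadriceps had such a p (2.13% and 4.88%). The shares were 8.46% and 7.03% from 28 to 45 bases, and 6.2% and 4.1% from 46 to 60 bases. At the length limit, the 22 tested gastrocnemius events of 60 bases differed between flight and ground by -34.7 to 18.8 points (median absolute change 3.85), and the 6 tested at 62 bases by -6.36 to 11 (6.52). In the quadriceps the 21 tested at 60 bases differed by -29.2 to 23.3 points (5.87), and the 5 at 62 bases by -30.8 to 14.1 (14.4). At 59 and 61 bases there were 1 and 2 tested events in the gastrocnemius, and 3 and 3 in the quadriceps.

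The 15-base exon of Ryr1 adds 5 codons to the calcium release channel and is 1 of the 2 most deeply read microexons outside Tnnt3. Its PSI was 69.1%, 68.4% and 69.4% in the ground gastrocnemius samples and 77.9%, 77.4% and 78.0% in flight, from 1250 to 2246 junction reads per sample. In the quadriceps it was 66.0%, 67.5% and 60.3% on the ground and 72.3%, 76.0% and 73.3% in flight. Every flight sample lay above every ground sample in both muscles. The difference was 8.77 points in the gastrocnemius (log2 ratio 0.65, SE 0.19, adjusted p = 0.526) and 9.26 points in the quadriceps (0.63, SE 0.23, adjusted p = 0.695), both from limma. The second Ryr1 microexon, of 18 bases, showed no such separation, with 79.1% ± 1.51 on the ground and 77.0% ± 2.28 in flight in the gastrocnemius (SD, n = 3) and 90.4% ± 2.28 and 90.7% ± 0.33 in the quadriceps. Ryr1 itself was at 1084 TPM on the ground and 1237 in flight in the gastrocnemius and at 1152 and 1260 in the quadriceps, with adjusted p of 0.257 and 0.525 by limma on log2(TPM + 1).

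Tnnt3 held 15 tested events over its 7 short exons in the gastrocnemius and 14 in the quadriceps, with means of 24 to 10790 junction reads per sample. In the gastrocnemius 5 of the 15 had an unadjusted p under 0.05, and flight and ground did not overlap in 7, all 7 lower in flight, where the shares over all events were 6.56% and 12.5%. In the quadriceps 5 of the 14 had an unadjusted p under 0.05, and flight and ground did not overlap in 5, of which 2 were higher and 3 lower, where the shares over all events were 6.42% and 11.6%. The events share reads, and the PSI of an exon depends on which neighbours it is counted with.

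The pair of 41-base exons had the most reads. Each was counted with the other as a neighbouring exon, so the 2 events share a junction and are not separate readings. A transcript that holds only 1 of the pair lacks 1 of the 2 inclusion junctions counted. These PSI values are therefore not the share of transcripts that hold each exon. The second exon stood at 31.5%, 25.9% and 27.2% in the ground and 23.3%, 19.4% and 23.1% in the flight gastrocnemius samples, a difference of -6.29 points (adjusted p = 0.526). In the quadriceps it was 32.4%, 31.1% and 32.9% on the ground and 28.3%, 21.3% and 23.0% in flight, a difference of -7.93 points (log2 ratio -0.58, SE 0.13, adjusted p = 0.69). Flight was below ground in all samples of both muscles. When the first flight quadriceps sample was left out, this exon passed the threshold, with an adjusted p of 0.0329 by limma. The first 41-base exon, which takes the place of the second in other transcripts, was at 35.4%, 37.2% and 36.8% on the ground and 42.3%, 49.7% and 43% in flight in the quadriceps, 8.54 points higher (adjusted p = 0.69). In the gastrocnemius it was 42.0% ± 3.63 on the ground and 42.7% ± 3.80 in flight, and the samples overlapped. A quasi-binomial model of the reads called both exons in the quadriceps and neither in the gastrocnemius.

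The N-terminal Tnnt3 exons were listed between several neighbours. The 15-base exon at 142505516, counted between the exons that end at 142504065 and begin at 142508335, was included at 84.3%, 80.1% and 84.8% in ground and 71.2%, 65.1% and 77.2% in flight gastrocnemius (adjusted p = 0.526). In the quadriceps it was 90.7%, 90.4% and 91.2% on the ground and 87.8%, 82.5% and 80.1% in flight (adjusted p = 0.695). Flight was again below ground in both muscles, and the gastrocnemius difference of -11.9 points passed under the quasi-binomial model. Between the neighbours at 142505299 and 142508335, from a mean of 2772 reads, this exon was at 31.8% ± 3.46 and 26.8% ± 0.90 in the gastrocnemius, without overlap. Between 142505299 and 142507750 it was at 90.4% ± 1.63 and 91.8% ± 5.76, with overlap. Both of these events overlapped in the quadriceps.
The 39-base exon, the most acidic by its count of codons (10 of 14), was at 10.5%, 6.91% and 10.7% in ground and 3.03%, 3.79% and 5.50% in flight gastrocnemius (adjusted p = 0.526). It was 18% ± 0.94 and 15.1% ± 3.20 in the quadriceps, where the samples overlapped. The 12-base exon between the same neighbours was at 60.6% ± 3.17 on the ground and 48.4% ± 3.57 in flight in the gastrocnemius, without overlap (adjusted p = 0.711), and at 72.2% ± 4.24 and 68.8% ± 3.47 in the quadriceps, with overlap. Between 142504264 and 142505516 (mean 2648 reads) it was at 79.7% ± 3.82 and 78.2% ± 1.14 in the gastrocnemius, with overlap. Between 142504065 and 142505516 (787 reads) it was at 9.48% ± 2.73 and 8.46% ± 3.70 there, again with overlap. Between 142502757 and 142505516 (38.7 reads) it was at 98.7% ± 2.23 and 88.6% ± 1.72 there, without overlap.
The 18-base exon was at 28.9%, 23.6% and 29.7% on the ground and 21.7%, 18.4% and 17.4% in flight in the quadriceps (adjusted p = 0.69). The 15-base exon at 142504250, counted with a right neighbour at 142505516, was at 37.0%, 39.1% and 43.3% on the ground and 48.1%, 55.3% and 60.2% in flight in that muscle (adjusted p = 0.695). These do not overlap between flight and ground in the quadriceps, whereas in the gastrocnemius the same events were at 30.7% ± 3.64 and 28% ± 3.11, and at 48.0% ± 3.75 and 54.2% ± 5.65, and did overlap. Counted with a right neighbour at 142508335, the exon at 142504250 was 70.1% ± 3.02 on the ground and 61.7% ± 1.88 in flight in the gastrocnemius, so that its direction differed between its own events. Tnnt3 was at 14670 TPM on the ground and 16680 in flight in the gastrocnemius and at 21220 and 23420 in the quadriceps, and neither difference was called (adjusted p = 0.245 and 0.52).

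**Figure D3:**
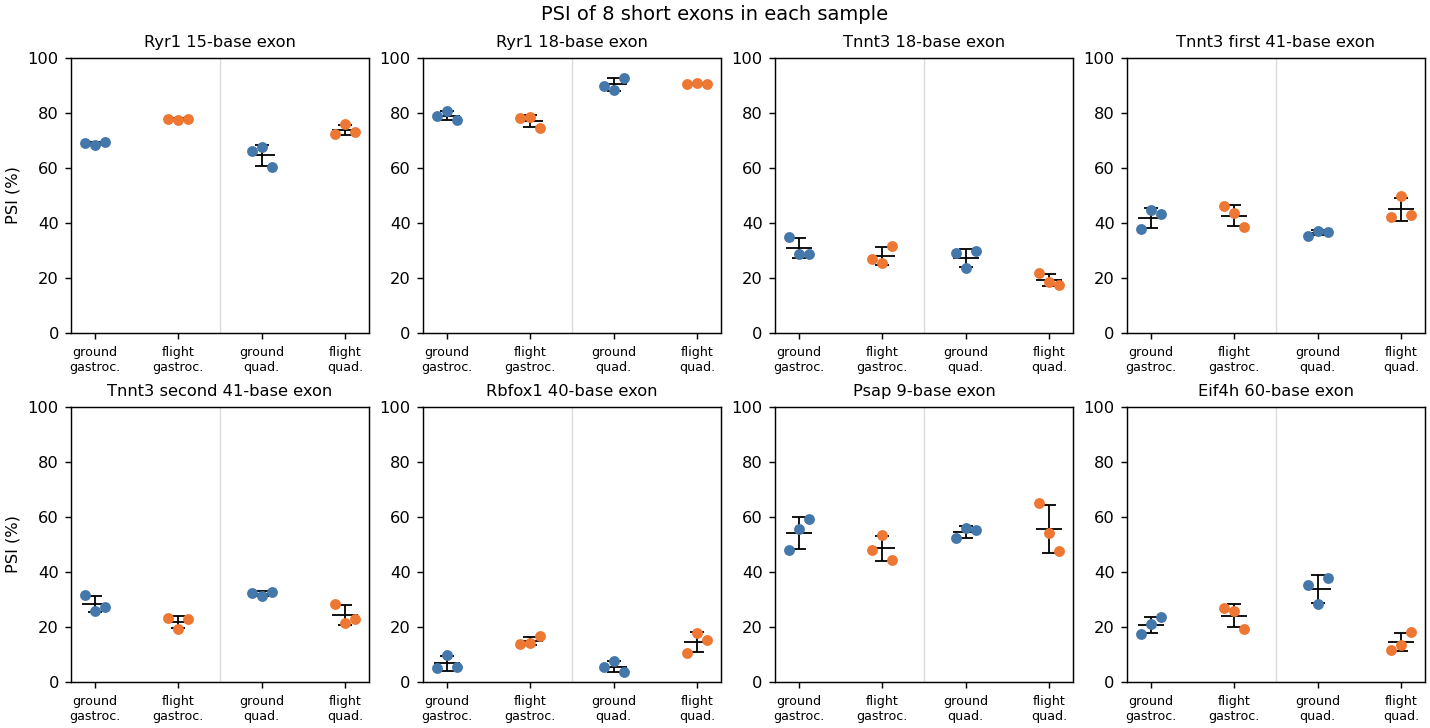
PSI in percent (vertical axis) of 8 short exon events in each sample of the 4 groups (horizontal axis), ground in blue and flight in orange, with bars for the mean and SD of 3 samples. The Ryr1 15-base exon and the Rbfox1 40-base exon sit higher in flight and the second Tnnt3 41-base exon lower in both muscles, and the Ryr1 18-base exon differs between the muscles instead.

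Over the 290 short events tested in both muscles, flight and ground did not overlap, in the same direction in both, for 7 (2.41%), against 1.62% of all 1296 events tested in both. The 7 were the Ryr1 15-base exon, the Tnnt3 exons at 142505516 and 142514326, and exons of Rbfox1, Art3, Dnm1l and Mrps18c, and those of the last 3 genes are named here after their values were seen. The 40-base exon of Rbfox1 was at 4.98%, 9.76% and 5.57% in ground and 13.9%, 14.3% and 16.6% in flight gastrocnemius (adjusted p = 0.711). Quadriceps PSI was 5.30%, 7.67% and 3.70% on the ground and 10.5%, 17.7% and 15.2% in flight (adjusted p = 0.752), so that inclusion was low in all samples and highest in flight. The 33-base exon of Dnm1l, the mitochondrial fission GTPase, had 8 to 15 reads per sample in the gastrocnemius and 5 to 16 in the quadriceps, with 16% ± 2 and 24.1% ± 1.96 in the first and 24.8% ± 22.6 and 69.9% ± 1.06 in the second. The 58-base exon of Mrps18c, a mitochondrial ribosomal protein, was at 87.7% ± 13.8 on the ground and 59.8% ± 12.9 in flight in the gastrocnemius and at 90.2% ± 9.53 and 69.6% ± 8.29 in the quadriceps. A 36-base exon of Art3 stood under 12% in every sample. The 37-base Art3 exon, which shares its end and neighbours, overlapped between flight and ground in the gastrocnemius. Flight and ground separated in opposite directions in the 2 muscles for 0 short events and for 10 of all 1296.

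Sarcomere genes, from a list that also holds Tnnt3, had 42 tested short events in the gastrocnemius, and 6 had an unadjusted p under 0.05 (1 higher and 5 lower in flight), where the share over all events was 6.56%. The 5 lower were all Tnnt3 events, which share reads. The 42 events had a median change of -1.12 points, against -0.36 over all tested events. In the quadriceps there were 39, of which 6 had such a p (3 higher and 3 lower) against a share of 6.42% over all events, with a median of -0.13 points against 0.14. The 28-base exon of Myl1, the fast essential myosin light chain, was at 40.1% ± 5.49 and 30.5% ± 4.17 in the gastrocnemius, without overlap, and at 38.0% ± 4.62 and 42.3% ± 6.29 in the quadriceps.

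Flight and ground overlapped in both muscles for the 15-base exon of the Z-disc protein gene Ldb3, at 79.7% ± 2.01 and 83.8% ± 5.06 in the gastrocnemius and 76.5% ± 8.66 and 83.8% ± 1.99 in the quadriceps. They overlapped as well for the 15-base exon of the cytoskeletal linker Plec (91.7% ± 2.19 and 92.1% ± 1.37 in the gastrocnemius) and the 42-base exon of the actin-binding gene Nexn (11.8% ± 1.56 and 14.4% ± 3.95). Mybpc1, slow myosin-binding protein C, had 3 short exons, and that of 59 bases was at 23.8% ± 1.20 on the ground and 24.5% ± 8.37 in flight in the gastrocnemius, from a mean of 655 reads. In the quadriceps its 42-base exon was at 90.3% ± 3.75 on the ground and 80.4% ± 6.42 in flight, with overlap (adjusted p = 0.752 by limma). The 42-base exon was at 92.65% ± 1.46 and 91.4% ± 3.58 in the gastrocnemius. The 32-base exon of Dmd, dystrophin, did not overlap in the gastrocnemius, at 97.4% ± 0.17 and 94.7% ± 0.67 (adjusted p = 0.8), and did in the quadriceps, at 97.3% ± 4.74 and 97% ± 2.60. Exons of the Z-disc genes Pdlim5 (18 bases, 81.6% ± 11.5 and 72.5% ± 8.72) and Sorbs2 (45 bases, 93.8% ± 7.46 and 91.7% ± 8.07) overlapped in the gastrocnemius.

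Excitation-contraction coupling genes had 21 tested short events in the gastrocnemius and 20 in the quadriceps. An unadjusted p under 0.05 was found for 3 of the 21 (1 higher and 2 lower) and 1 of the 20 (higher), where the shares over all events were 6.56% and 6.42%. Median changes were -2.01 and 0.46 points, against -0.36 and 0.14 over all events. Besides the Ryr1 exon, these included the 55-base exon of the calcium-dependent kinase gene Camk2g, which had the smallest p of all short events in the gastrocnemius (adjusted p = 0.359). It had no skipping read in the 3 ground samples, where 3 such reads would have put PSI at 96.8% to 97.1%, and was at 98.0%, 94.2% and 99.1% in flight, a difference of -2.89 points that is under the 5-point limit. The 42-base exon of Asph, which also encodes the calcium-binding protein junctin, was at 99.3% ± 1.23 and 95.3% ± 0.64 in the gastrocnemius. Both exons of Trdn, triadin, the partner of the release channel, were nearly level, the 48-base exon at 88.2% ± 1.11 and 88.3% ± 2.63 from a mean of 1402 reads in the gastrocnemius and the 30-base exon at 95.6% ± 2.89 and 95.8% ± 0.33. Inclusion was low and the groups overlapped for the 33-base exon of Camk2g (7.36% ± 1.82 and 5.63% ± 2.30) and the 45-base exon of Asph (7.48% ± 3.93 and 6.27% ± 3.38).

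Splicing regulator genes had 14 tested short events in each muscle, with 3 in the gastrocnemius (2 higher, 1 lower) and 0 in the quadriceps at an unadjusted p under 0.05 (6.56% and 6.42% over all events), and medians of -0.36 and 1.27 points against -0.36 and 0.14. Next to Rbfox1, the 36-base exon of Mbnl1, a regulator of muscle splicing, named after its values were seen, was at 5.82%, 12.6% and 7.96% in ground and 31.8%, 20.8% and 29.8% in flight gastrocnemius (adjusted p = 0.526). It was supported by 20 to 38 reads per sample. Counted with a different downstream neighbour the same Mbnl1 exon was at 8.0%, 18.7% and 12.2% on the ground and 32.4%, 16.8% and 24.3% in flight, where the groups overlap, and in the quadriceps the groups overlapped in both events. Exons of Hnrnpa2b1 (36 bases, 10.7% ± 1.19 and 11.3% ± 3.13), Hnrnpm (53 bases, 44.9% ± 5.95 and 37.5% ± 1.82), Mbnl2 (54 bases, 6.94% ± 4.53 and 4.75% ± 2.77), Srsf7 (36 bases, 83.7% ± 13.1 and 85.8% ± 3.48) and Hnrnph1 (50 bases, 96.3% ± 4.49 and 92.1% ± 3), all RNA-binding proteins, overlapped between ground and flight in the gastrocnemius. In the quadriceps the Srsf7 exon did not overlap, at 93.6% ± 6.03 and 85.3% ± 3.32 (adjusted p = 0.782 by limma).

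Membrane traffic genes had 29 tested short events in the gastrocnemius (1 at an unadjusted p under 0.05, higher) and 26 in the quadriceps (2, both higher), where the shares over all events were 6.56% and 6.42%. Their medians were 1.54 and 3 points, against -0.36 and 0.14 over all events. The 12-base exon of Erc1 had no inclusion read in 2 of the 3 ground quadriceps samples, where 3 reads would have given 8.48% and 10.3%, and stood at 2.94% in the other. In flight quadriceps it was at 22.1%, 9.79% and 13.1% (adjusted p = 0.69), and in the gastrocnemius at 10.2% ± 9.44 and 15.8% ± 5.32. The 21-base exon of Ap1b1, a clathrin adaptor subunit, was at 1.40% ± 2.42 and 16.6% ± 6.69 in the gastrocnemius from a mean of 11 reads. The ground values there were 0%, 4.19% and 0%, from only 10, 17 and 8 reads. In the quadriceps this exon was at 11.2% ± 15.2 and 18.7% ± 9.84, with overlap. Transcription factor and signalling genes had 14 and 15 tested short events, with 0 and 2 at an unadjusted p under 0.05, against the same shares, and medians of -0.38 and 1.24 points.

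The remaining exons that met the naming rule had mostly fewer reads. In the gastrocnemius the 54-base exon of Prxl2c was at 83.6% ± 4.21 and 53.3% ± 7.63, that of 41 bases in Gigyf2, a translational repressor, at 80.2% ± 9.46 and 97.8% ± 3.81, and that of 51 bases in Ptcd3, of the mitochondrial ribosome, at 89.1% ± 7.37 and 99% ± 1.80. Each overlapped in the quadriceps. There Prxl2c was at 74.4% ± 23.5 and 49.7% ± 9.55, Gigyf2 at 82.3% ± 15.4 and 85.2% ± 18.2, and Ptcd3 at 100% and 95.2% ± 8.25. In the quadriceps the 37-base exon of Art3 was at 0.76% ± 1.31 and 7.57% ± 4.33, and the 48-base exon of Mapk12, a p38 kinase, at 86.3% ± 7.46 and 98.3% ± 2.93. Both overlapped in the gastrocnemius, at 2.62% ± 0.89 and 3.83% ± 1.62 and at 91.6% ± 5.27 and 92.4% ± 5.08. The 48-base exon of the ion cotransporter gene Slc12a2 was at 96.5% ± 6.02 and 83.8% ± 4.51 in the quadriceps. The 45-base exon of Myo18b, an unconventional myosin, was at 99.2% ± 1.45 and 92.2% ± 6.74 there, with overlap. The 21-base exon of the kinase gene Mast2 was at 45.6% ± 39.5 and 95.8% ± 7.22 there, a difference of 50.2 points that was 27.4 points without the shallow ground sample listed last, which had 2 reads for this exon. The 9-base exon of Psap, which adds 3 codons to prosaposin, was at 54.2% ± 5.69 and 48.6% ± 4.62 in the gastrocnemius and at 54.6% ± 2.07 and 55.6% ± 8.85 in the quadriceps, close to even inclusion in each group. An 18-base exon of the ribosomal protein gene Rps24 was at 81.2% ± 2.48 and 81.3% ± 0.79 in the gastrocnemius, and at 86.2% ± 3.89 and 79.4% ± 2.40 in the quadriceps, where flight and ground did not overlap.

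An interaction term asked whether the flight effect differed between gastrocnemius and quadriceps, over the 1296 events tested in both, in a fit that does not take account of the mice that the muscles share. It passed for 0 of the 290 short events, where the share over all events was 0%, and 13 (4.48%) had an unadjusted p under 0.05, against 5.94% of all events. The smallest p belonged to the 12-base exon of Ptprm, which occurs only in transcripts annotated for NMD (adjusted p = 0.474). Counted with a right neighbour at 66814467, it was at 2.79% ± 2.44 and 13.0% ± 9.83 in the gastrocnemius and at 17.1% ± 9.89 on the ground in the quadriceps, with no inclusion read in the 3 flight quadriceps samples, where 3 reads would have given 8.79% to 13.8%. With a right neighbour at 66814271, the first and second flight quadriceps samples had no inclusion read, from 5 and 2 skipping reads. The 60-base exon of Eif4h came next (adjusted p = 0.759). Its PSI was 35.4%, 28.3% and 38.0% in ground and 11.7%, 13.6% and 18.1% in flight quadriceps, and 17.6%, 21.1% and 23.5% in ground and 27.1%, 26.0% and 19.4% in flight gastrocnemius. Flight was lower in all quadriceps samples, and the groups overlapped in the gastrocnemius. The 33-base exon of Tnnt1 followed, counted with the neighbour that ends at 4512283 (adjusted p = 0.759). In the gastrocnemius it was at 97.0% ± 2.9 on the ground and 93.1% ± 2.1 in flight. Quadriceps values were 83.1% ± 9.0 and 92.8% ± 5.7, and flight and ground overlapped in both muscles. With the neighbour that ends at 4512286, the gastrocnemius means were 94.1% and 88.5% and the quadriceps means 89.8% and 91.3% (adjusted p = 0.908).

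Between the muscles of ground mice, in the same fit, 64 of all 1296 events (4.94%) passed at an adjusted p under 0.05 and more than 5 points, but 2 of the 290 short events (0.69%), and 62 of the 1006 longer events (6.16%). The longer events include those of Ttn and Neb, and the part of these genes in that share was not tested. An unadjusted p under 0.05 was found for 24 short events (8.28%), against 12.8% of all events. The muscles did not overlap for 41 short events (14.1%), against 17.1% of all events. The 2 short exons that passed were the 18-base exon of Ryr1 and the 33-base exon of Tnnt1. The Ryr1 exon was at 78.9%, 80.6% and 77.6% in ground gastrocnemius and 89.8%, 88.4% and 92.9% in ground quadriceps, from 1113 to 2406 reads per sample, a difference of 11.3 points (log2 ratio 1.34, SE 0.22, adjusted p = 0.000988). It kept the call when any 1 of the 12 samples was left out. The 33-base exon of Tnnt1, counted with the neighbour that ends at 4512283, was at 93.6%, 98.4% and 98.8% in the gastrocnemius and 93.2%, 80.1% and 76.0% in the quadriceps, a difference of -13.9 points (adjusted p = 0.0446). Its samples came from 24 to 143 reads, and the call was lost when ground gastrocnemius sample 2 or 3, any flight gastrocnemius sample, ground quadriceps sample 2 or 3 or flight quadriceps sample 3, in list order, was left out. Counted with a neighbour that ends at 4512286, the same exon was at 94.1% ± 3.82 and 89.8% ± 8.81 and was not called (adjusted p = 0.814).

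The next smallest p in this contrast belonged to the Tnnt3 exons at 142504250 (70.1% ± 3.02 in the gastrocnemius and 81.9% ± 1.65 in the quadriceps, adjusted p = 0.054) and at 142505516 (83.1% ± 2.57 and 90.8% ± 0.41, adjusted p = 0.0789), both without overlap. Both exons passed when events needed more than 20 reads. The summed level of 3 nerve and neuron genes, almost all of it the myelin gene Mbp, was 39.3 to 60.3 TPM in ground gastrocnemius and 12.3 to 18.7 in ground quadriceps, with Snap25 and Nefl near 0, and its part in the muscle differences was not tested. Tnnt1 itself was at 402, 322 and 347 TPM in ground gastrocnemius and 147, 409 and 404 in ground quadriceps.

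**Figure D4:**
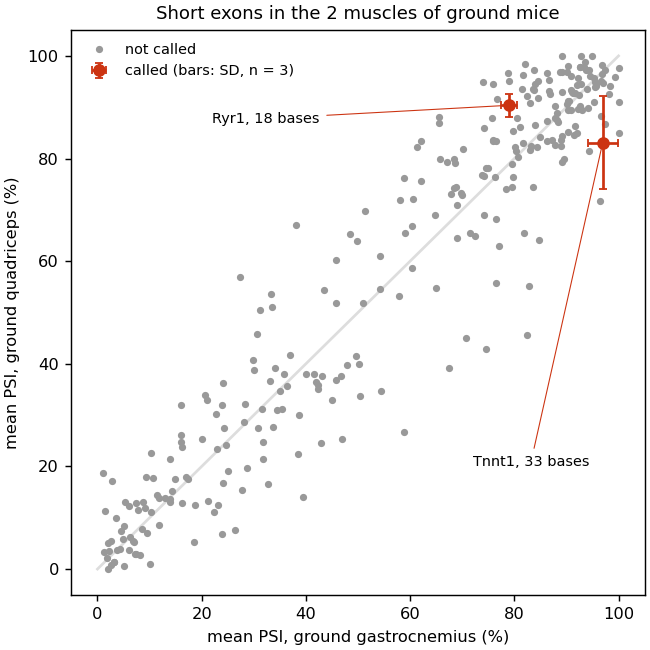
Mean PSI in percent of the 290 short events tested in both muscles, ground gastrocnemius (horizontal axis) against ground quadriceps (vertical axis), each over 3 samples, with equality as a line. The 2 called events, in red with SD bars, are the Ryr1 18-base exon above the line (79.1% and 90.4%) and the Tnnt1 33-base exon below it (97.0% and 83.1%).

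Of the 306 genes with a short exon, 302 were in the expression test of 10481 genes. One passed at an adjusted p under 0.05 and over 1.5-fold in the gastrocnemius, which was 0.331% against 0.229% of all genes, and 0 passed in the quadriceps, against 0.0286%. In the gastrocnemius 60 of these genes (19.9%), and in the quadriceps 44 (14.6%), had an unadjusted p under 0.05, against 15.1% and 10.8% of all genes tested. The gene that passed was Idh2, the mitochondrial isocitrate dehydrogenase, at 210, 208 and 198 TPM on the ground and 146, 125 and 126 in flight, a log2 difference of -0.64 on the log2(TPM + 1) scale (SE 0.09, adjusted p = 0.0446 by limma). No gene with a short exon passed when any 1 of the 3 ground gastrocnemius libraries or the library of flight mouse M12 or M20 was left out, or with the replicate number as a block (a number that joins different mice, which the labels do not pair), and 2 passed without M11. Such a difference in bulk tissue cannot separate fewer cells of a type from less RNA per cell. The 39-base exon of Idh2, found only in NMD transcripts, was at 3.36% in 1 ground sample and had no inclusion read in the other two, where 3 reads would have given 2.9% and 6.26%, and was at 7.37%, 4.82% and 4.82% in flight, from 12 to 56 reads.

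None of the regulators known for short exons was called in either muscle. Rbfox2 was at 63.9, 60.4 and 53.9 TPM in ground and 86.2, 85.5 and 92.0 in flight gastrocnemius, without overlap (log2 difference 0.56, SE 0.09, adjusted p = 0.0774). Quadriceps levels of Rbfox2 were 60.7 ± 9.57 and 74.2 ± 8.42 TPM (adjusted p = 0.491). Rbfox1 was at 119 ± 7.47 and 138 ± 2.58 TPM in the gastrocnemius and at 128 ± 1.51 and 149 ± 7.35 in the quadriceps, and Srsf11, an SR protein, at 84.8 ± 7.78 and 105 ± 9.03 and at 84.9 ± 4.97 and 108 ± 11.2. Mbnl1 was at 261 ± 9.54 and 278 ± 11.8 TPM in the gastrocnemius, and Ptbp1, a repressor of neuronal exons, at 16.3 ± 2.01 and 16.2 ± 3.05. The neuronal regulators Srrm4 (0.21 to 0.38 TPM by group mean) and Srrm3 (0.65 to 1.29) were below the 5 TPM needed for a test.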

How the data were processed

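Gastrocnemius and quadriceps RNA of 6 mice (12 libraries, single-end stranded reads of 50 bases) was measured. The authors aligned reads with STAR 2.7.1a to mm10 and counted junction reads with rMATS-turbo (version not given in the sources used here). They left out events with few reads or extreme PSI over all 12 samples. Expression was deposited as TPM, made by the authors with kallisto 0.46.0 and tximport, and they tested genes with DESeq2 1.26.0. These versions come from the submitters' processing notes. The splicing tables were deposited with whole-number junction counts, 3 per group in unnamed lists, and effective lengths. They also hold the authors' PSI, PSI differences, p-values and FDR, none of which was used.

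PSI was recomputed as inclusion reads over inclusion length against skipping reads over skipping length. The inclusion length grows with the exon, so that PSI of short exons depends on this correction. Counts get 0.5 added in the log2 ratio, and a sample with no reads has no value in the fit. All kept SE events were fitted by limma 3.58.1 (trend) in R 4.3.3, two-sided, with Benjamini-Hochberg adjustment. Calls need an adjusted p under 0.05 and over 5 points, and the interaction needs the adjusted p alone. Expression was tested likewise on log2(TPM + 1) for genes over 5 TPM in at least 1 library, at over 1.5-fold. The labels do not say more of the replicates than that they are separate mice. Both muscles came from the same mice.

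edgeR had been planned for the junction counts and was not run, because the lists could not be read as count columns, and neither was DESeq2. A quasi-binomial model was first put in its place. The log2 ratio test, planned as an alternative, was made the main test after the calls of both had been seen, since the quasi-binomial spread fell below the raw spread for the deepest events and since, on simulated data, its calls held more unchanged events than its threshold allows. Both were tested on simulated data.

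The members and lists were chosen with earlier results of these data known. Named were the called exons or, failing 10, those with the smallest p without overlap, exons of sarcomere, excitation-contraction and splicing regulator genes with over 50 reads, the 10 deepest of 27 bases or fewer, and the top 5 and 3 of the muscle contrast and interaction. Exons were placed with GENCODE vM21, and no genome sequence was used. The values of 1 gene are not reported here.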

Additional observations from a re-analysis of the deposited data

How the results depend on the processing

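No paired analysis was possible because the junction reads of a group are listed without sample names, so that no PSI value could be matched to a mouse. For expression, 0 genes with a short exon passed in the gastrocnemius with the replicate number as a block, 0 with no filter on TPM and between 0 and 2 when 1 library was left out, against 1 as reported, and 0 passed in the quadriceps under the same settings. The labels do not pair the flight and ground mice of the same replicate number, so that block has no basis in the design.

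Short events called between flight and ground numbered 1 in the gastrocnemius and 4 in the quadriceps under the quasi-binomial model (11 and 7 over all events). That model was run before limma was made the main test, a change made after seeing the calls of both. The short events that model called were the Tnnt3 15-base exon at 142505516 in the gastrocnemius, and 3 Tnnt3 events and the Eif4h exon in the quadriceps. Under every other setting run the count was 0, except for 1 in the quadriceps without the first flight sample, so leave-one-out counts ran from 0 to 0 and from 0 to 1. Changes of Tnnt3 events under the quasi-binomial model were -11.91 points (adjusted p = 0.009) in the gastrocnemius and 14.73 (0.00297), 8.54 (0.00297) and -7.93 (0.00115) in the quadriceps. For 20 changes of named exons recomputed under these settings, 171 values kept their side of the threshold and 5 passed it. These exons were picked because flight and ground did not overlap. None of these settings could therefore reverse a direction, and the 0 reversals found say nothing of how stable the changes are. Events with an unadjusted p under 0.05 numbered 6 and 7 when only exons of 27 bases or fewer were counted, which is a smaller set. That set held 29 and 26 tested events of up to 15 bases and 47 and 41 of 16 to 27 bases. The shares over all events were 6.56% and 6.42%. For all short events the counts ran from 20 to 26 in the gastrocnemius and from 14 to 30 in the quadriceps with 1 sample left out. Without the shallow ground quadriceps sample that is listed last the latter was 20, and it was 30 without the first ground sample and 14 without the first or the second flight sample. For the interaction the count was 5 of short events with more than 20 reads and ran from 8 to 20 with 1 sample left out, and 0 were called throughout. Between the muscles of ground mice 1 short event was called without a filter on reads and 4 with more than 20 reads. Leave-one-out calls ran from 1 to 2, with an unadjusted p under 0.05 for 10 to 27. The share over all events was not computed for each left-out sample, so these leave-one-out counts have no background beside them. The exons besides Ryr1 and Tnnt1 that passed on leaving out 1 sample were in Erc1, Trappc9 and Afg1l.

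With inclusion reads divided by 2 in place of the effective lengths, 36 of 106 ground means of PSI of the named events moved by more than 1 SD. Flight means were not checked in this way. DESeq2 and the search of introns for motifs were not run. Short events had a median under 30 reads per sample.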
